A study of Homo sapiens with 12 samples.

Results

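MS4A1, the gene of the B cell surface protein CD20, and 7 tetraspanin genes (CD81, CD37, CD53, CD9, CD63, CD82 and CD151) were followed through the response of a lymphoma line to the degrader AU-15330. The 8 genes were selected on their symbols out of 20318 gene entries, and the highest mean level was to decide between repeated entries. Each symbol had 1 entry, so that no measured value decided the choice. Of the 8 genes, 7 passed the filter on low values (at least 1 CPM, where CPM is the count scaled to a common library total, in at least 3 libraries), and CD82 did not. The genes were also picked with the responses of MS4A1, CD81 and CD37 already known, so that the tests below describe these genes and are no independent support for a direction.

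MS4A1 and CD81 were the most heavily read of the 8 genes in DMSO, and both fell under AU-15330, to 54.7% and 52.1% of their DMSO means at 8 h and to 29.5% and 24.4% at 24 h. CD37 went the other way, with 2.01 and 2.33 times its DMSO mean. CD9 fell to 26.6% of DMSO at 8 h and to 22.2% at 24 h. CD53 fell at 24 h and CD63 at 8 h, both by less, and CD151 fell to 52.9% of DMSO at 8 h and had no called change at 24 h.

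Z138 is a human mantle cell lymphoma line, given as lymphoblast and wild type in the labels, and all libraries come from this 1 line. The groups were AU-15330 at 0.5 µM for 8 h (n = 3), DMSO for 8 h (n = 2 here), AU-15330 at 0.5 µM for 24 h (n = 3) and DMSO for 24 h (n = 3). AU-15330 is a proteolysis-targeting chimera, a molecule that brings a ubiquitin ligase to SMARCA2, SMARCA4 and PBRM1, which belong to the SWI/SNF chromatin remodelling complexes. The comparison asks how RNA levels under the degrader compare with DMSO within each time. At 8 h a pair of DMSO columns had the same name and the same values, so 1 of them was left out and 11 of the 12 samples were analysed. Estimated totals lay between 50765418 and 67572111 counts per library. The labels name a batch for each time, so that time and batch cannot be told apart in any comparison of 24 h with 8 h, the difference between the treatment effects included. Nothing says that replicates were separate cultures, so the p-values cover no more than the variation among these libraries, and that may be technical.

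Tetraspanins are small proteins that cross the membrane several times and gather receptors, integrins and signalling proteins into membrane domains. CD81 is part of signalling complexes at the B cell surface, while CD37 and CD53 are found mainly on leukocytes, and CD9, CD63, CD82 and CD151 occur in many tissues. CD20 crosses the membrane in a similar way but belongs to another family, MS4A. It is the target of rituximab and other antibodies given in B cell lymphoma, and CD37 is a target of antibodies in clinical study.

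Of the B cell markers, CD79A lay between 77.8 and 209 CPM over all libraries, CD79B between 38.8 and 191 CPM and PAX5 between 37.6 and 245 CPM. BLK was lower, at 6.61 to 20.6 CPM, and CD22 was lowest, at 2.65 to 5.81 CPM in DMSO and 0 to 0.498 CPM under AU-15330. CCND1, the cyclin D1 gene that marks mantle cell lymphoma, lay between 2463 and 2894 CPM. CD5, another mantle cell marker, was under the filter, at 0.0496 CPM at most. All 5 B cell markers read (CD79A, CD79B, PAX5, CD22 and BLK) were in the table, and their summed level was 276 to 313 CPM under AU-15330 and 496 to 521 CPM in DMSO at 8 h, and 235 to 255 CPM under AU-15330 and 614 to 638 CPM in DMSO at 24 h. For T cells, 5 of 6 markers were in the table, with sums of 5.44 to 6.98 CPM under AU-15330 and 17.0 to 17.7 CPM in DMSO at 8 h, and 2.72 to 3.38 CPM under AU-15330 and 17.7 to 18.2 CPM in DMSO at 24 h. CD3G was the largest part of that sum, at 11.3 to 12.5 CPM in DMSO, and CD4 had 3.53 to 5.09 CPM there. CD3E, which defines T cells, was under the filter. It had 0.809 to 0.876 CPM in DMSO at 8 h and 0.980 to 1.25 CPM in DMSO at 24 h. Under AU-15330 it had 0.108 to 0.218 CPM at 8 h and 0 to 0.0334 CPM at 24 h. The sums of the 3 measured myeloid and the 2 measured megakaryocyte markers did not pass 0.618 and 0.574 CPM in any library. In the 6 plasma cell markers the sum was 1586 to 1802 CPM under AU-15330 and 2091 to 2204 CPM in DMSO at 8 h, and 1759 to 1898 CPM under AU-15330 and 2680.4 to 2804 CPM in DMSO at 24 h. JCHAIN made up most of that sum, at 976 to 1192 CPM under AU-15330 and 1549 to 1672 CPM in DMSO at 8 h, and 1343 to 1492 CPM under AU-15330 and 2127 to 2261 CPM in DMSO at 24 h. MZB1 had 18.0 to 19.9 CPM under AU-15330 and 69.9 to 77.4 CPM in DMSO at 8 h. At 24 h MZB1 had 35.4 to 41.1 CPM under AU-15330 and 90.9 to 92.9 CPM in DMSO. TNFRSF17 was also lower in every AU-15330 library than in any DMSO library. IRF4 at 24 h was lower too, at 203 to 206 CPM under AU-15330 and 317 to 329 CPM in DMSO. PRDM1, SDC1 and IRF4 lay the other way at 1 time or both. PRDM1 had 54.8 to 69.5 CPM under AU-15330 and 24.4 to 26.3 CPM in DMSO at 8 h, and 49.5 to 55.3 CPM under AU-15330 and 19.4 to 26.4 CPM in DMSO at 24 h, and SDC1 at 24 h and IRF4 at 8 h were also higher in every AU-15330 library than in any DMSO library. The sum of the 3 mantle cell markers was 2563 to 2706 CPM under AU-15330 and 2669 to 2759 CPM in DMSO at 8 h, and 2960 to 3091 CPM under AU-15330 and 2811 to 2856 CPM in DMSO at 24 h, where SOX11 had 188 to 197 CPM under AU-15330 and 76.4 to 88.3 CPM in DMSO. The B cell, T cell and plasma cell sums were thus lower under AU-15330 at both times, as MS4A1 and CD81 were, while the mantle cell sum was higher at 24 h, and the part of these markers in the results was not tested.

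MS4A1 (chromosome 11, 60455752 to 60470760 on GRCh38, plus strand) had normalised counts of 13809.5, 12883 and 14287 under AU-15330 at 8 h, against 25345 and 24571 in DMSO. At 24 h it had 10467.5, 10796 and 10968 under AU-15330, against 37107, 36504 and 35476 in DMSO. Every AU-15330 library lay below every DMSO library at both times, and the gap was wider at 24 h. MS4A1 fell at both times, with log2 changes of -0.87 ± 0.0444 (SE) at 8 h (limma adjusted p = 7.245e-08) and -1.75 ± 0.0397 at 24 h (limma adjusted p = 1.13e-10). The log2 scale here and below is that of the normalised count plus 60, and the adjusted p-values come from limma on the deposited values, adjusted by Benjamini-Hochberg across all 12721 tested genes, with a threshold of 0.05. In bulk RNA, fewer cells with a transcript and less of it per cell cannot be told apart, and no protein was measured.

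The wider gap of MS4A1 at 24 h was made up of changes in both arms. Between 24 h and 8 h the gene fell by 0.34 ± 0.0397 on the log2 scale under AU-15330 (limma adjusted p = 8.52e-05) and rose by 0.54 ± 0.0444 in DMSO (limma adjusted p = 1.97e-05). The difference between the treatment effects, 24 h minus 8 h, was -0.89 ± 0.0596 (limma adjusted p = 7.50e-06), and its adjusted p lay between 5.01e-06 and 0.000125 over 20 alternatives.

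CD81, a tetraspanin of B cells and other tissues (chromosome 11, 2376177 to 2397419, plus strand), had normalised counts of 13889.7, 15842 and 15068 under AU-15330 at 8 h, against 29133 and 28189.9 in DMSO. The 24 h counts were 7179, 7081 and 6782 under AU-15330, against 28550.5, 28729 and 28912 in DMSO. The groups did not overlap at either time, and the 3 AU-15330 libraries of 24 h were the lowest of all 11. CD81 fell at both times, with log2 changes of -0.94 ± 0.0496 at 8 h (limma adjusted p = 7.38e-08) and -2.03 ± 0.0444 at 24 h (limma adjusted p = 1.13e-10).

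In DMSO CD81 had no called change, and 24 h against 8 h gave 0.00 with a 95% interval of -0.11 to 0.11 (limma adjusted p = 0.975). Under AU-15330 the same comparison gave -1.08 ± 0.0444 (limma adjusted p = 9.09e-08). The treatment effects differed by -1.09 ± 0.0666 between the times (limma adjusted p = 7.18e-06), with an adjusted p of 4.58e-06 to 0.000118 over 20 alternatives. Within a library, the ratio of the MS4A1 to the CD81 count averaged 0.919 ± 0.0941 under AU-15330 and 0.871 ± 0.00116 in DMSO at 8 h (SD, n = 3 and n = 2), and 1.53 ± 0.0800 under AU-15330 and 1.27 ± 0.0366 in DMSO at 24 h (SD, n = 3 each). The ratios of the treatments overlapped at 8 h and did not overlap at 24 h.

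CD37, the leukocyte tetraspanin (chromosome 19, 49335171 to 49343335, plus strand), had normalised counts of 449, 532 and 588 under AU-15330 at 8 h, against 258 and 263 in DMSO. Its counts at 24 h were 1076, 1128 and 1033 under AU-15330, against 494, 482 and 410.3 in DMSO. The AU-15330 libraries were above the DMSO libraries of their own time, and those of 24 h were the highest of all. CD37 rose by 0.86 ± 0.111 at 8 h (limma adjusted p = 0.000211) and by 1.13 ± 0.0992 at 24 h (limma adjusted p = 1.19e-06) on the log2 scale.

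CD37 also rose with time in both arms, by 0.97 ± 0.0992 under AU-15330 (limma adjusted p = 1.08e-05) and by 0.70 ± 0.111 in DMSO (limma adjusted p = 0.00592). The difference between its treatment effects was 0.27 ± 0.149 with a 95% interval of -0.06 to 0.60 on the log2 scale, which holds 0. On the deposited scale it passed the threshold (limma adjusted p = 0.0408), and 13 of 20 alternatives ended that call, with adjusted p-values of 0.0259 to 0.159 over the 20. The call was lost in the fits without replicate 1 or replicate 2 of AU-15330 at 8 h (0.0751 and 0.0613), without either DMSO library of 8 h (0.0956 and 0.109), without replicate 1 or 2 of AU-15330 at 24 h (0.0706 and 0.0890) and without replicate 2 or 3 of DMSO at 24 h (0.0575 and 0.0885), all adjusted p-values from limma.

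The opposite directions left MS4A1 much closer to CD37 within each treated library. The ratio of MS4A1 to CD37 counts was 26.4 ± 3.75 under AU-15330 and 95.9 ± 3.52 in DMSO at 8 h (SD, n = 3 and n = 2), and 9.97 ± 0.564 under AU-15330 and 79.1 ± 6.40 in DMSO at 24 h (SD, n = 3 each). A ratio within a library does not depend on how libraries are scaled to each other, and it compares groups, not genes, because it is not corrected for transcript length. The ratio of CD81 to CD37 counts was 28.8 ± 2.80 under AU-15330 and 110.1 ± 4.19 in DMSO at 8 h, and 6.51 ± 0.203 under AU-15330 and 62.6 ± 6.87 in DMSO at 24 h. Neither ratio overlapped between the treatments at either time.

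**Figure D1:**
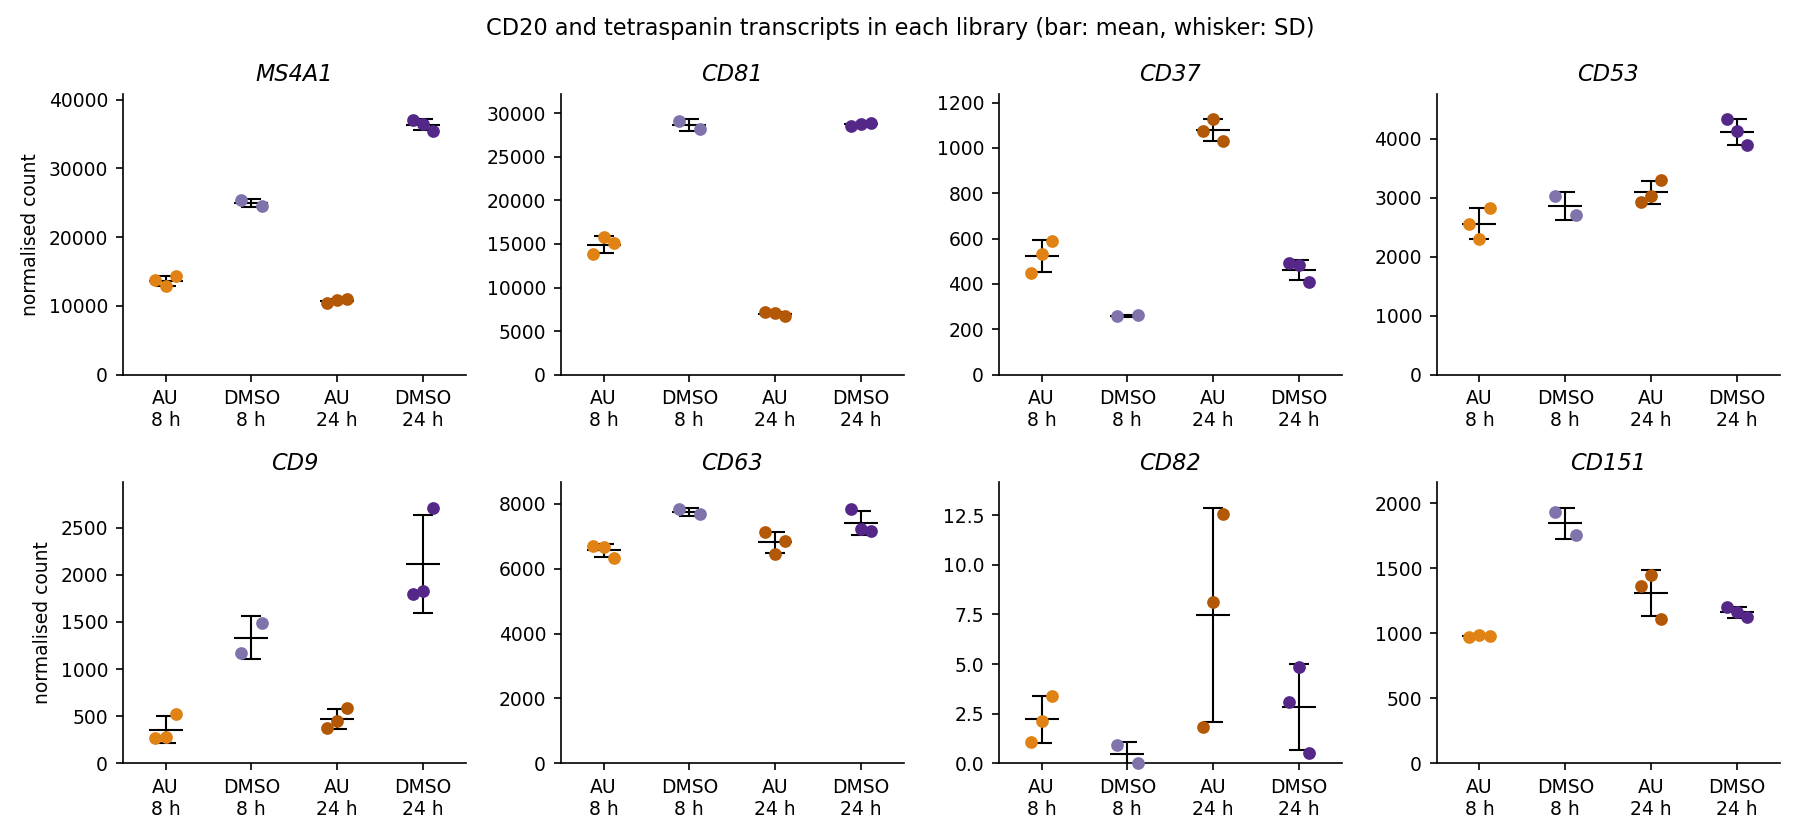
Normalised count of each of the 8 genes (vertical axis, from 0, with a scale of its own per gene) in every library of AU-15330 and DMSO at 8 h and 24 h. Points are libraries, bars are group means and whiskers are SD. MS4A1, CD81 and CD9 lie lower in the AU-15330 libraries at both times, CD37 lies higher, and CD82 has at most 12.5 normalised counts in any library.

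CD53, CD9 and CD63 had start regions in the RefSeq table (GRCh38.p14, 250 bases before a start to 50 after it), as did CD82. MS4A1, CD81, CD37 and CD151 had none there. The first listed window of each of CD53, CD9 and CD63 is printed because these 3 genes differed in their change under AU-15330. The regulators described further on include factors of the motif types searched, but they were listed for MS4A1 or CD37. Capitals mark matches, on either strand, to GAGGAA (the type bound by PU.1), ATGCAAAT (the octamer), CACGTG (an E-box), TATAAA and an interferon response type motif.
CD53, chr1:110870960-110871259, plus strand: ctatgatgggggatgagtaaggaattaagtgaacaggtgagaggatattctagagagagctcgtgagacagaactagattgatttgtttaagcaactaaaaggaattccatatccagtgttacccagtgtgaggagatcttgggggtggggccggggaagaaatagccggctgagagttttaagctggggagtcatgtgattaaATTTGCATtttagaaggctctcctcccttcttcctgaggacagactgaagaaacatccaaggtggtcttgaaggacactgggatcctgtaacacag
CD9, chr12:6199696-6199995, plus strand: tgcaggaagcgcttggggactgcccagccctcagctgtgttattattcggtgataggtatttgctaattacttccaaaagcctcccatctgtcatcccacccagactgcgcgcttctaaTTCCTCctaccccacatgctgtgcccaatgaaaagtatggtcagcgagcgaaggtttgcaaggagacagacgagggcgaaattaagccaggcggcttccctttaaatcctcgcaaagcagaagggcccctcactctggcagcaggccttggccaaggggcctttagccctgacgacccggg
CD63, chr12:55728960-55729259, minus strand: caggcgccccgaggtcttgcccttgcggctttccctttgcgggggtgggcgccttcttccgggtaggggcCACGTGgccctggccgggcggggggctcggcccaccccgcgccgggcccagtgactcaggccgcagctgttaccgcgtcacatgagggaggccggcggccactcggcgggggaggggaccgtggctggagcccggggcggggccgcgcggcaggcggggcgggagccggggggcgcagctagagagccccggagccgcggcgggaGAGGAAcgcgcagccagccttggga
The CD53 window holds the octamer on the opposite strand, read as ATTTGCAT from position -46 (the start is position 1, and there is no position 0). It has no GAGGAA, but the other CD53 window, not printed, holds it from position -147 and, on the opposite strand, from position -76. The printed windows alone thus do not set CD53 apart from CD9 and CD63 in this motif. The octamer was in 1.77% of all 35116 windows of the table. The CD9 window holds TTCCTC, the opposite strand of GAGGAA, from position -131, and the CD63 window holds CACGTG from position -180 and GAGGAA from position 26. GAGGAA was in 27.9% of all windows and in 10 of the 15 listed for these 4 genes, some of which overlap, and CACGTG was in 7.26%. The interferon response type motif was in 3.57% and TATAAA in 11.5% of all windows, and neither was in any of the 15. GC content was 45.7% in the CD53 window, 55.3% in the CD9 window and 78.3% in the CD63 window, against a median of 58.7% over the table. A match is a description of letters, and which start is used in these cells was not measured.

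CD53, a tetraspanin of leukocytes (chromosome 1, 110871188 to 110899928, plus strand), had normalised counts of 2554, 2296 and 2832 under AU-15330 at 8 h, against 3030.2 and 2698 in DMSO. At 24 h the counts were 2933, 3035 and 3302 under AU-15330, against 4327, 4122 and 3889 in DMSO. The groups overlapped at 8 h and were apart at 24 h. The change at 8 h was -0.16 with a 95% interval of -0.36 to 0.03 (limma adjusted p = 0.177), and at 24 h CD53 fell by 0.41 ± 0.0791 (limma adjusted p = 0.000861). The difference between these effects, -0.25 with an interval of -0.51 to 0.02, did not pass the test (limma adjusted p = 0.136).

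With time CD53 rose by 0.51 ± 0.0885 in DMSO (limma adjusted p = 0.00332). Under AU-15330 it rose by 0.27 ± 0.0791 (limma adjusted p = 0.0206), a call that was lost without replicate 1 or replicate 2 of AU-15330 at 8 h (limma adjusted p = 0.0508 and 0.0802) and without replicate 3 of AU-15330 at 24 h (limma adjusted p = 0.0732). The AU-15330 libraries of 24 h thus lay above those of 8 h and below DMSO of 24 h, with no overlap in either case.

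CD9, known from cell adhesion, gamete fusion and exosomes (chromosome 12, 6199715 to 6238271, plus strand), had normalised counts of 267, 276 and 518 under AU-15330 at 8 h, against 1170.3 and 1492 in DMSO. The libraries of 24 h had 373, 448 and 589 under AU-15330, against 1792, 1832 and 2715 in DMSO. Replicate 3 was the highest library of AU-15330 at both times and of DMSO at 24 h, and no AU-15330 library reached a DMSO library. CD9 fell, with log2 changes of -1.79 ± 0.264 at 8 h (limma adjusted p = 0.000369) and -2.03 ± 0.236 at 24 h (limma adjusted p = 1.47e-05).

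CD9 had the widest spread of the 7 tested genes, and its effects at the times were not told apart, with a difference of -0.24 and a 95% interval of -1.02 to 0.54 (limma adjusted p = 0.347). The time changes of 0.39 ± 0.236 under AU-15330 (limma adjusted p = 0.356) and 0.63 ± 0.264 in DMSO (limma adjusted p = 0.0772) did not pass. The DMSO change passed in 2 of 21 alternatives, the AU-15330 change in 1 of 21 and the difference between effects in 1 of 20. Fits with the replicate number as a block, described at the end, were among these. Both fall calls of CD9 held under all 21 alternatives, with adjusted p-values of up to 0.00695 at 8 h and 0.000126 at 24 h.

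CD63, a tetraspanin of late endosomes, lysosomes and exosomes (chromosome 12, 55725323 to 55729707, minus strand), had normalised counts of 6697, 6673 and 6343 under AU-15330 at 8 h, against 7851 and 7673 in DMSO. The counts at 24 h were 7122, 6464 and 6841 under AU-15330, against 7834, 7219 and 7178 in DMSO. The libraries did not overlap at either time, though by 24 h the nearest pair was almost level. CD63 fell by 0.24 ± 0.0527 on the log2 scale at 8 h (limma adjusted p = 0.00342). Its change of -0.12 ± 0.0471 at 24 h, with an interval of -0.22 to -0.02, missed the threshold (limma adjusted p = 0.0513) and passed it in 5 of 21 alternatives, in 1 of them without replicate 1 of AU-15330 at 24 h (limma adjusted p = 0.0289). The difference between the effects, 0.12 ± 0.0707, did not pass (limma adjusted p = 0.281). With time it changed by 0.05 ± 0.0471 under AU-15330 and by -0.07 ± 0.0527 in DMSO (limma adjusted p = 0.434 and 0.470).

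CD151, which binds laminin receptors of the integrin family (chromosome 11, 832843 to 839831, plus strand), had normalised counts of 969.8, 985 and 974 under AU-15330 at 8 h, against 1929.9 and 1758 in DMSO. At 24 h it had 1363, 1447 and 1108 under AU-15330, against 1204, 1159 and 1121 in DMSO. The groups were far apart at 8 h and overlapped at 24 h, where replicate 3 of AU-15330 lay below all DMSO libraries. CD151 fell by 0.88 ± 0.0972 at 8 h on the log2 scale (limma adjusted p = 2.43e-05), and its change of 0.15 at 24 h, with a 95% interval of -0.04 to 0.35, did not pass (limma adjusted p = 0.161). Without replicate 3 of AU-15330 at 24 h the 24 h change passed as a rise (limma adjusted p = 0.00785, in a range of 0.00785 to 0.492 over 21 alternatives).

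The treatment effects on CD151 differed by 1.03 ± 0.130 between the times (limma adjusted p = 0.000421), and both arms moved. Between 24 h and 8 h it rose by 0.39 ± 0.0869 under AU-15330 (limma adjusted p = 0.00521) and fell by 0.64 ± 0.0972 in DMSO (limma adjusted p = 0.00158). POLR2L, a subunit gene of the RNA polymerases, overlaps CD151 on the opposite strand, and whether counting used the strand is stated in none of the sources used, so the CD151 values are uncertain. POLR2L itself changed by -0.17 at 8 h and -0.14 at 24 h, neither of which passed (limma adjusted p = 0.129 and 0.174).

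CD82, known as a suppressor of metastasis in solid tumours (chromosome 11, 44564427 to 44620363, plus strand), had normalised counts of 1.08, 2.13 and 3.41 under AU-15330 at 8 h and of 0.899 and 0 in DMSO. In the libraries of 24 h it had 1.81, 8.12 and 12.5 under AU-15330 and 3.08, 4.86 and 0.524 in DMSO. About 59.4 normalised counts equal 1 CPM, so CD82 was far below the filter in every library, and no fold or test is given.

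**Figure D2:**
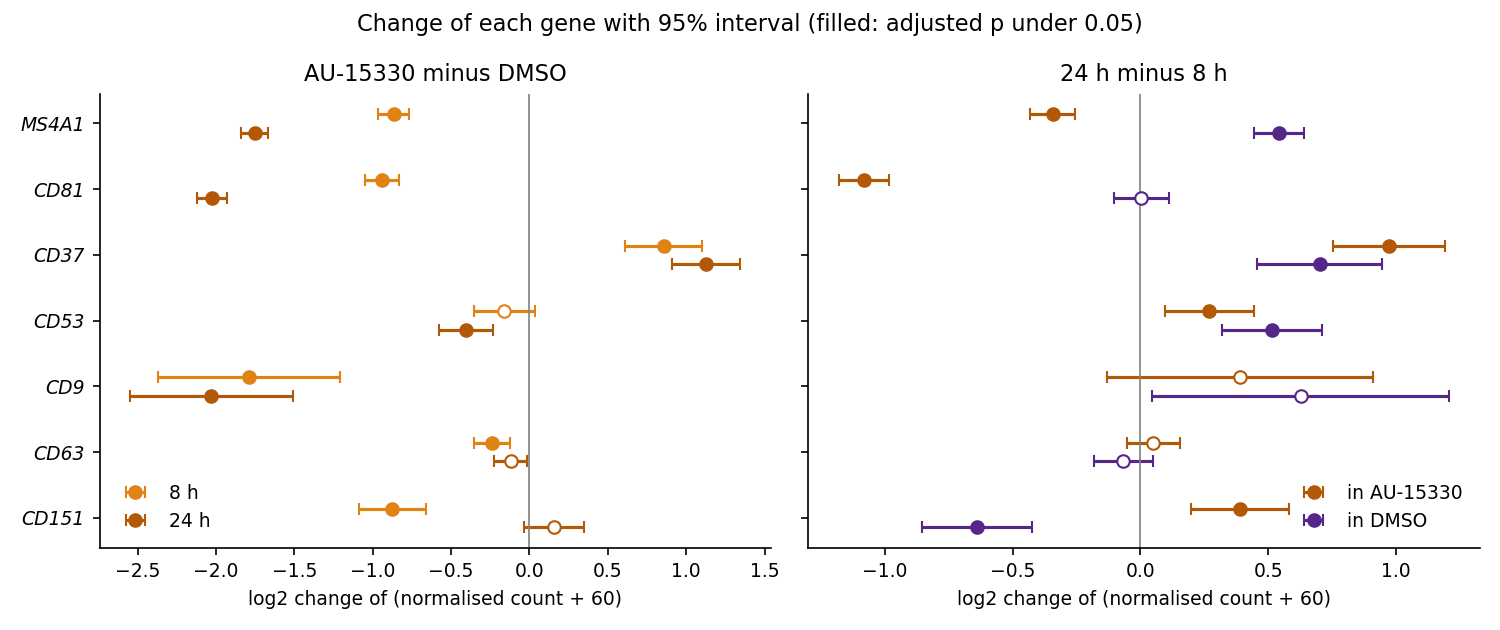
Log2 change of the normalised count plus 60 for the 7 tested genes, AU-15330 minus DMSO (left) and 24 h minus 8 h (right), with 95% intervals. Filled points have a limma adjusted p under 0.05. On the left MS4A1 and CD81 lie at -0.87 and -0.94 at 8 h and lower at 24 h and CD37 lies above 0, and on the right MS4A1 and CD151 move in opposite directions in the arms.

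Of the 7 tested genes, 1 was higher and 5 were lower under AU-15330 at 8 h, against 22.9% higher and 21.4% lower among all 12721 genes tested, and 1 did not pass. At 24 h, 1 was higher, 4 were lower and 2 did not pass, against 24.7% higher and 26.2% lower among all genes. The difference between the effects was called in 2 genes upward (CD37 and CD151) and in 2 downward (MS4A1 and CD81), against 7.54% and 11.0% of all genes. For that comparison the share lower among called genes was 59.3% on the deposited scale, 41.1% on log2(CPM + 1), 40.7% on log2(CPM + 5) and 48.5% with quantile normalisation.

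At 24 h against 8 h under AU-15330, 3 of the 7 were higher (CD37, CD53 and CD151) and 2 lower (MS4A1 and CD81), against 18.3% and 21.1% of all genes. In DMSO, 3 were higher (MS4A1, CD37 and CD53) and 1 lower (CD151), against 6.56% and 3.56%. The share lower among the genes called in DMSO was 35.2% on the deposited scale, 49.8% on log2(CPM + 1), 49.3% on log2(CPM + 5) and 47.4% with quantile normalisation. These comparisons share their libraries with the treatment comparisons, so the counts are not separate evidence.

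Per kilobase of transcript, the order of the genes changed with treatment. Under AU-15330 at 24 h CD63 was first, with 5523 ± 268 normalised counts per kb, then CD81 with 4614 ± 136, MS4A1 with 3092 ± 73.2 and CD53 with 1969 ± 121 (SD, n = 3 each). In DMSO at 24 h CD81 was first with 18902 ± 119, then MS4A1 with 10464 ± 237, CD63 with 6010.1 ± 298 and CD53 with 2621 ± 140.

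At 8 h the order was part of the way between. Under AU-15330 it was CD81 (9825 ± 647), CD63 (5329 ± 160.5), MS4A1 (3931 ± 205) and CD53 (1632 ± 171), against CD81 (18856 ± 439), MS4A1 (7182 ± 158), CD63 (6295 ± 102) and CD53 (1825 ± 149.7) in DMSO, all in normalised counts per kb. The same first 3 genes in the same order came out with the median length of all coding transcripts in place of the principal one. In DMSO at 8 h CD151 then stood above CD53. With that length CD63 and CD81 were close under AU-15330 at 24 h, at 8641 and 8379 per kb. CD63 and MS4A1 were also closer under AU-15330 at 8 h, at 8339 and 7833 per kb.

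Among the lower genes, CD37 reached 853 ± 37.5 per kb under AU-15330 at 24 h beside CD151 at 788 ± 107 and CD9 at 300.02 ± 70.1, whereas in DMSO CD9 had 1349 ± 333, CD151 700.4 ± 24.9 and CD37 365 ± 35.9. CD37 and CD151 under AU-15330 at 24 h lay within each other's spread, and their order turned with the other transcript length. At 8 h CD151 had 589 ± 4.65, CD37 413 ± 55.3 and CD9 226 ± 90.7 per kb under AU-15330, against 1112 ± 73.3, 206 ± 3.04 and 849.99 ± 145 in DMSO in the same order of genes. With the principal transcript length, other neighbours in these orders were apart by more than their SD.

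**Figure D3:**
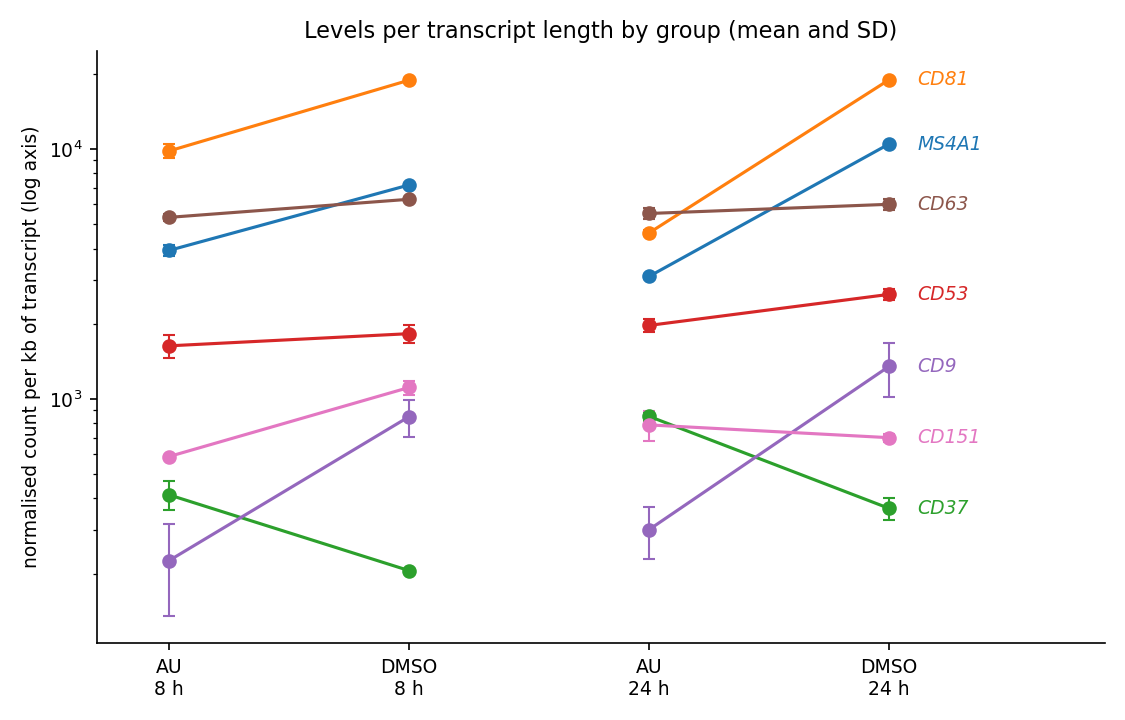
Mean normalised count per kb of the principal transcript (log axis) of the 7 genes that passed the filter, by group, with SD. Lines join AU-15330 to DMSO of the same time. CD81 and MS4A1 stand below CD63 under AU-15330 at 24 h and above it in DMSO.

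Within a library, the ratio of CD81 to CD63 counts, which is not corrected for length, was lower under AU-15330 at both times and came close to 1 at 24 h. It was 2.27 ± 0.174 under AU-15330 and 3.69 ± 0.0262 in DMSO at 8 h (SD, n = 3 and n = 2), and 1.03 ± 0.0559 under AU-15330 and 3.88 ± 0.209 in DMSO at 24 h (SD, n = 3 each). Neither pair of groups overlapped, and the order of CD63 and CD81 at 24 h given above rests on the division by transcript length.

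The tetraspanin family has 33 genes on the list used, of which 27 were in the table and 12 passed the filter. Apart from the genes above, 6 were tested, of which 1 rose, 3 fell and 2 did not pass, both at 8 h and at 24 h (16.7% higher and 50.0% lower, beside the shares over all genes given above). Their median log2 change was -0.49 at 8 h and -0.25 at 24 h, against 0.02 and 0.01 over all genes tested. TSPAN17 averaged 1130.4 ± 62.6 normalised counts under AU-15330 and 617 ± 5.09 in DMSO at 8 h, and 1469 ± 8.75 under AU-15330 and 636 ± 25.0 in DMSO at 24 h. It rose by 0.81 ± 0.0681 and 1.14 ± 0.0609 (limma adjusted p = 4.08e-06 and 4.11e-08), beside 0.86 and 1.13 for CD37.

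TSPAN14, a partner of the protease ADAM10, changed by -1.14 ± 0.0525 at 8 h and -0.73 ± 0.0470 at 24 h, and TSPAN3 by -0.90 ± 0.0754 and -0.79 ± 0.0674, and all 4 changes were falls past the threshold (limma adjusted p between 3.60e-08 and 2.46e-06). TSPAN4, which lies 2.98 kb from CD151, changed by -0.19 at 8 h, which did not pass (limma adjusted p = 0.134), while its fall at 24 h, -0.41 ± 0.0894, did (limma adjusted p = 0.00257). Of the MS4A family, 3 of 18 genes were tested. Beside MS4A1, MS4A7 had 0.17 at 8 h, which did not pass, and -0.78 ± 0.252 at 24 h, a called fall (limma adjusted p = 0.665 and 0.0246). It averaged 27.9 normalised counts under AU-15330 and 15.7 in DMSO at 8 h, and 30.5 and 91.3 at 24 h. These levels are near the filter, which MS4A7 passed only with the DMSO libraries of 24 h, so its called fall is no support for a direction. MS4A4E had 0.07 and 0.19, neither of which passed (limma adjusted p = 0.662 and 0.153).

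Of 14 genes whose proteins join tetraspanins in the membrane 10 were tested, and 7 fell at 8 h and 8 at 24 h by limma (70.0% and 80.0%, against 21.4% and 26.2% of all genes tested), while 3 and 2 did not pass. None rose at either time by limma, where an unadjusted p under 0.05 gave 1 at 8 h and 0 at 24 h. The median was -0.30 at 8 h and -0.63 at 24 h. ITGB1, the integrin beta 1 chain, had -0.06 and 0.08 and PTPRC, the phosphatase CD45, had 0.38 and 0.03, and none of these passed (limma adjusted p = 0.494, 0.239, 0.0541 and 0.851). ITGB1 and PTPRC were picked after their values were seen. PTPRC has 2 entries in the table and its values are uncertain.

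IFITM1, an interferon-induced membrane protein found with CD81, averaged 131 ± 11.9 normalised counts under AU-15330 and 420.2 ± 20.8 in DMSO at 8 h, and 52.8 ± 3.80 under AU-15330 and 542 ± 52.4 in DMSO at 24 h. Its falls were -1.33 ± 0.105 and -2.41 ± 0.0939 on the log2 scale (limma adjusted p = 3.13e-06 and 6.73e-09). IGSF8, a direct partner of CD81 and CD9, fell too, at -1.30 ± 0.0672 and -1.05 ± 0.0601 (limma adjusted p = 7.93e-08 and 4.92e-08). HLA-DRA changed by -0.19 and -1.06 (limma adjusted p = 0.0110 and 8.99e-09), but the symbol has 7 entries in the table and its values are uncertain. CR2, a complement receptor, was not tested. ITGA3, a laminin receptor chain that binds CD151, is named because its p at 24 h was among the 4 smallest of the list. It changed by -1.57 ± 0.209 and -2.38 ± 0.187 (limma adjusted p = 4.79e-05 and 1.78e-07).

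CD20 and CD37 were also read against the other surface proteins at which antibodies in B cell disease are aimed. Of 10 tested genes of this list besides the pair, 9 fell and 1 did not pass at 8 h, and 1 rose and 9 fell at 24 h (90.0% lower at both times, against 21.4% and 26.2% of all genes tested). None rose at 8 h by limma, also at an unadjusted p under 0.05 (0 genes). Their median was -1.33 at 8 h and -1.84 at 24 h. CD38, an ectoenzyme, averaged 1815 ± 392 normalised counts under AU-15330 and 8222 ± 56.3 in DMSO at 8 h, and 1466 ± 101 under AU-15330 and 12268.5 ± 37.2 in DMSO at 24 h. CD38 changed by -2.16 ± 0.127 and -3.02 ± 0.114, CD79B of the B cell receptor by -1.63 ± 0.0743 and -2.23 ± 0.0665, and TNFRSF13C, the BAFF receptor, by -1.74 ± 0.0723 and -1.54 ± 0.0647. The limma adjusted p-values of these 3 genes lay between 3.74e-10 and 5.09e-08. CD52, a surface glycoprotein of lymphocytes, changed by -0.59 ± 0.131 and -2.20 ± 0.117 (limma adjusted p = 0.00222 and 6.46e-08). CD70 was the gene that rose at 24 h (0.30 ± 0.0589, limma adjusted p = 0.00102).

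Complement regulators, which protect cells from antibody-guided lysis, had 3 tested genes of 4. At 8 h 1 rose and 2 fell, and at 24 h 2 fell and 1 did not pass, with medians of -0.53 and -0.23. The shares at 8 h were 33.3% higher and 66.7% lower, against 22.9% and 21.4% of all genes tested. For 24 h they were 0% and 66.7%, against 24.7% and 26.2%, and 3 genes make such shares coarse. None rose at 24 h by limma, nor at an unadjusted p under 0.05 (0 genes). CD59 fell at both times (-0.53 ± 0.111 and -0.58 ± 0.0995), as did CD46 (-0.55 ± 0.0717 and -0.23 ± 0.0641), and CD55 rose by 0.27 ± 0.0799 at 8 h and had -0.05 at 24 h (limma adjusted p = 0.571).

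Factors described as acting on MS4A1 or CD37 were 17, all tested. At 8 h 4 rose, 9 fell and 4 did not pass, and at 24 h 4 rose, 10 fell and 3 did not pass, with medians of -0.19 and -0.71. The 23.5% that rose at each time lie near the 22.9% and 24.7% of all genes tested, and 52.9% and 58.8% fell, against 21.4% and 26.2%. POU2F2, the octamer factor OCT2, rose at both times (0.58 ± 0.0970 and 0.60 ± 0.0867, limma adjusted p = 0.000508 and 9.57e-05), and so did TFE3 (0.28 ± 0.0697 and 0.58 ± 0.0623, limma adjusted p = 0.00683 and 1.16e-05). SPI1, which encodes PU.1, averaged 188 ± 30.6 normalised counts under AU-15330 and 1141 ± 97.3 in DMSO at 8 h, and 90.9 ± 5.50 under AU-15330 and 1078 ± 41.0 in DMSO at 24 h. SPI1 changed by -2.28 ± 0.111 and -2.91 ± 0.0996 (limma adjusted p = 2.73e-08 and 1.17e-09).

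IRF8, a partner factor of PU.1, changed by -1.81 ± 0.167 and -2.00 ± 0.150 (limma adjusted p = 5.92e-06 and 4.31e-07). IRF4, another partner of PU.1, rose by 0.39 ± 0.0360 at 8 h and fell by 0.71 ± 0.0322 at 24 h, and the effects differed by -1.10 ± 0.0482 (limma adjusted p = 6.98e-07). POU2AF1, the octamer coactivator, changed by -0.29 ± 0.0608 and -1.45 ± 0.0544, TCF3 by -0.16 ± 0.0320 and -0.76 ± 0.0286, and FOXO1, described as a repressor of MS4A1, by -0.36 ± 0.0816 and -0.92 ± 0.0729, and all 3 fell past the threshold at both times. For these 3 genes the effects differed between the times, by -1.16, -0.60 and -0.57 (limma adjusted p = 1.63e-05, 1.38e-05 and 0.00362). Over the 17 factors that difference was called lower in 6 (IRF4, ETS1 and EBF1 besides these 3) and higher in 3 (TFE3, USF1 and CREM). This was 35.3% lower and 17.6% higher, against 11.0% and 7.54% of all genes tested. The other 8 did not pass, among them SPI1 and IRF8 (limma adjusted p = 0.0684 and 0.432). Whether any of these factors acts on the genes here was not tested.

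Endolysosome and exosome genes are the setting of CD63. Of 15 tested, 1 rose, 6 fell and 8 did not pass at 8 h, and 3 rose, 4 fell and 8 did not pass at 24 h, with medians of 0.03 and -0.03. At 24 h 20% rose and 26.7% fell, near the 24.7% and 26.2% of all genes tested, and at 8 h 6.67% rose and 40.0% fell, against 22.9% and 21.4%. LAMP2, a lysosomal membrane protein, fell at both times (-0.76 ± 0.0526 and -0.77 ± 0.0471), and so did TFEB, a regulator of lysosome genes (-0.43 ± 0.104 and -0.96 ± 0.0931), and the raft protein gene FLOT2 (-0.35 ± 0.0603 and -0.50 ± 0.0539). CTSD, the gene of a lysosomal protease, fell by 0.26 ± 0.0773 at 8 h and rose by 0.38 ± 0.0691 at 24 h, with a difference of 0.64 ± 0.104 (limma adjusted p = 0.00197).

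**Figure D4:**
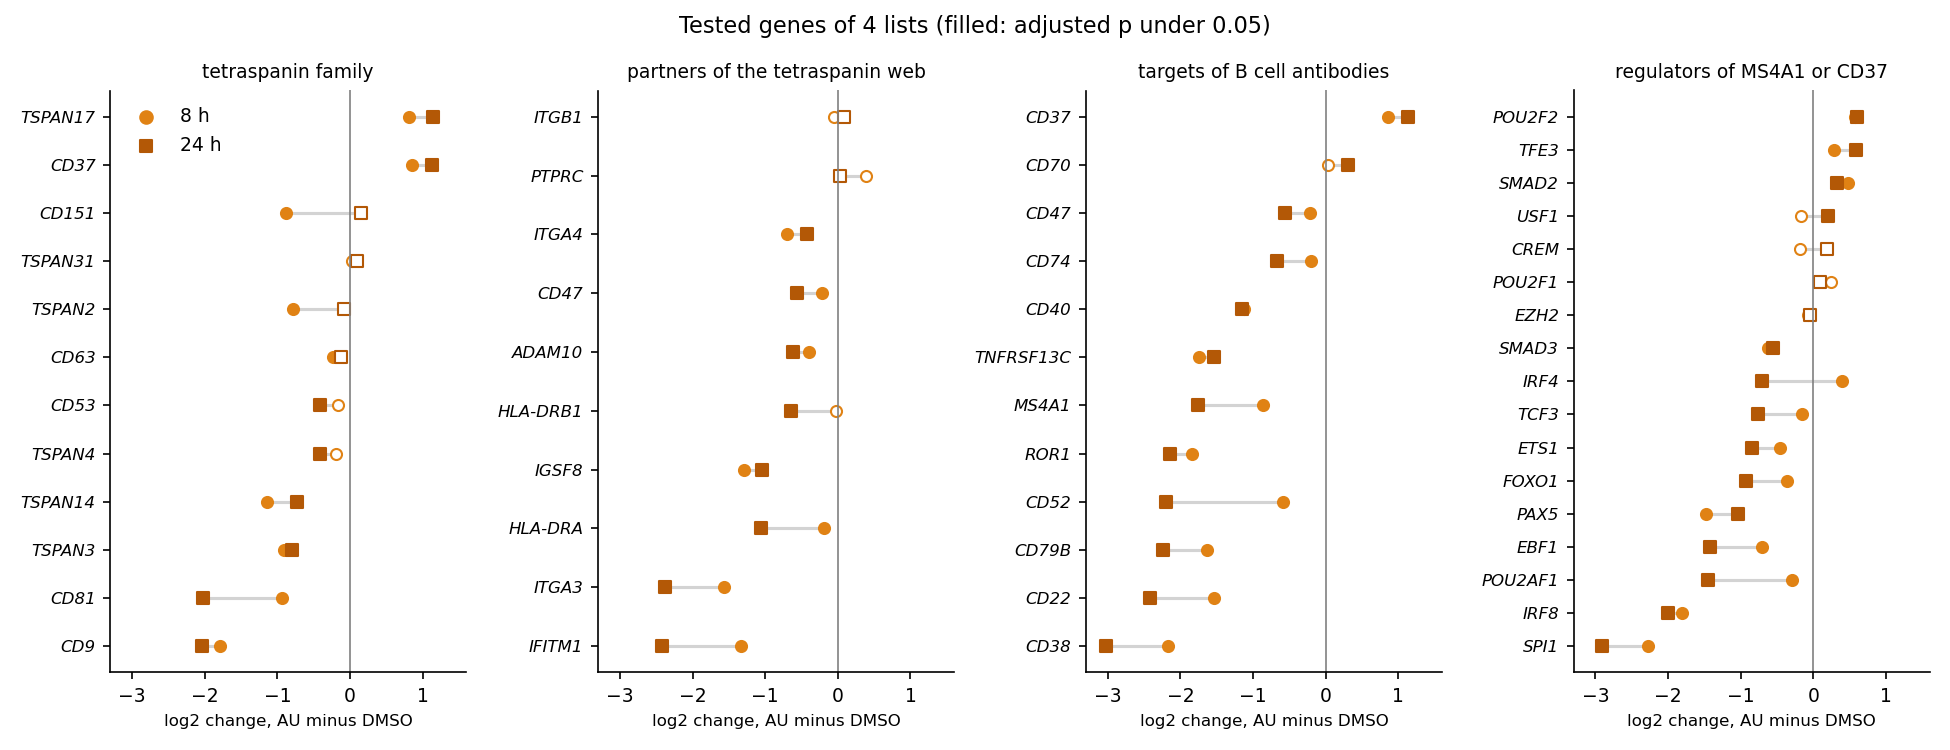
Log2 change of the normalised count plus 60, AU-15330 minus DMSO, at 8 h (circles) and 24 h (squares) for the tested genes of 4 lists, ordered by the change at 24 h. Filled marks have a limma adjusted p under 0.05. CD37 and TSPAN17 lie highest in the tetraspanin family, CD9 and CD81 lowest at 24 h and CD9 and TSPAN14 at 8 h, and CD37 is the highest of the antibody targets.

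For MS4A1, CD81 and CD37, the table was searched for genes with the closest pattern over the 11 libraries, among 7236 tested genes with a mean of at least 20 CPM. The measure was the root mean square difference of log2 values, each gene centred on its mean. The closest to MS4A1 were ADA, an enzyme of purine metabolism (0.0864), PHACTR1 (0.120), ERAP2, a peptidase of antigen processing (0.123), and CCDC69 (0.137). ADA changed by -0.93 at 8 h and -1.73 at 24 h. For CD81 they were MGLL, a lipase (0.104), RCSD1 (0.147), BAHCC1 (0.150) and IGLL1, a surrogate light chain gene (0.153), and MGLL changed by -1.01 and -2.03. CD37 had no match as close, and TBC1D9 (0.221), RUFY3 (0.225), NAB2 (0.229) and IFNLR1 (0.236) came first. CD37 itself had 4.32 to 19.3 CPM per library, below the mean level asked of the genes compared. Whether this low level widened its differences was not tested.

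Next to the genes on their chromosomes, the nearest tested genes did not all move with them. TSSC4, 3.07 kb from CD81, changed by 0.20 at 8 h and -0.08 at 24 h, neither of which passed (limma adjusted p = 0.151 and 0.553), while C11orf21, 73.1 kb to the other side, changed by -0.86 and -1.14 (limma adjusted p = 0.000541 and 4.59e-06). CRACR2B, 0.852 kb from CD151, changed by -0.87 at 8 h and -1.20 at 24 h (limma adjusted p = 0.000439 and 1.48e-05), where CD151 had no called change at 24 h. Beside CD37, TRPM4 at 123 kb changed by -1.25 and -0.71 (limma adjusted p = 3.40e-06 and 1.68e-05), and PIH1D1 at 103 kb had -0.15, which did not pass, and -0.26, which did (limma adjusted p = 0.115 and 0.00509). GDF11, 13.6 kb from CD63, changed by -1.15 and -0.67, and TNFRSF1A, 90.5 kb from CD9, by -1.37 and -0.86, all past the threshold.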

How the data were processed

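RNA from Z138 cells was sequenced in 12 samples, and 11 libraries in 4 groups were analysed. Per the submitters' processing notes the build was GRCh38.p13 and the tools were kallisto 0.46.1, Trimmomatic 0.40, DESeq2 1.24.0 and R 4.3.2, with no parameters given. The labels name both a kit that selects polyadenylated RNA and one that removes ribosomal RNA, without saying which was used for which library. The deposited values are on a log2 scale, and how the authors made them was read from the values. The lowest value was 10.36 in every library, as a variance-stabilising transform of counts gives, and inverting that transform gave normalised counts. A doubling is 0.163 on the deposited scale at 100 normalised counts and 0.852 at 10000, so fold changes come from log2(normalised count + 60), which still understates those of low genes.

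One column, identical in name and values to another, was not used. Its name is claimed by DMSO replicates 2 and 3 of 8 h, and to which the values belong is not settled. The planned design assumed 12 libraries. Entries with at least 1 CPM in 3 libraries were tested (12721). The fit (limma 3.58.1, R 4.3.3, variance prior following the mean) had 1 mean per group, a shared spread and 7 residual degrees of freedom. The method was checked on simulated data. Coordinates are from GENCODE on GRCh38. Python 3.11.15 with NumPy 2.4.6, pandas 2.3.3 and Matplotlib 3.10.9 made the tables and plots.

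The genes and lists (tetraspanins, MS4A family, partners, antibody targets, complement regulators, regulators, endolysosome genes and markers) were chosen with earlier results of these data known. Named genes are the 8 members, the 4 others of each list with the smallest p at 24 h, CR2, IFITM1, SPI1, IRF4, IRF8 and FOXO1 where tested, and the 4 genes nearest in pattern to MS4A1, CD81 and CD37. Other genes named were chosen after their values were seen. A gene of these lists is not reported here, and it was left out of their counts and sums. Alternatives were other scalings, filters, priors and groups in the fit, the replicate number as a block, and leaving out each library.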

Additional observations from a re-analysis of the deposited data

Results flagged for a closer look

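The effect of AU-15330 differed between the times, by limma's test of the difference itself, in 4 of the 7 tested genes. The log2 effect at 24 h minus that at 8 h was -0.89 for MS4A1 and -1.09 for CD81, both lower at 24 h. It was 1.03 for CD151 and 0.27 for CD37. For CD37 the call was lost in 13 of 20 alternatives, and the interval on the log2 scale held 0. Time and batch cannot be told apart in these differences.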

How the results depend on the processing

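Counts of called genes among the 7 tested stayed within 1.5 times of their reported values in all 104 comparisons with an alternative. The single changes kept their direction and side of the threshold in 325 settings other than leaving out a library and in 370 fits without 1 library. The exceptions with a turned direction all concern CD81 in DMSO at 24 h against 8 h, which was never called. On the deposited scale it was -0.0386 after quantile normalisation and -0.00378 with library medians centred. It was -0.0272 on log2(CPM + 1) and -0.0270 on log2(CPM + 5), which are scales of their own. Over the fits without 1 library it was -0.0185 to 0.0252 on the deposited scale. It turned there without the repeated DMSO column of 8 h and, at -0.000840, without DMSO replicate 3 of 24 h. With the replicate number as a block and the repeated column taken as number 3, a setting chosen after seeing the data, it was -0.0109. The cause was not tested.

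Deviations of same-numbered libraries had correlations across genes of -0.0434 to 0.134, against -0.1 to 0.0702 for others. In the groups with 3 libraries, every same-numbered pair was positive, at 0.03 to 0.134, and most other pairs were negative. These low values do not settle whether a number marks related samples, and the main fit did not use the number. Under the replicate block with the repeated column as number 2, CD63 at 24 h passed (-0.0925 on the deposited scale, limma adjusted p = 0.0306), CD9 in DMSO over time passed (0.242, limma adjusted p = 0.0165) and the CD37 difference between effects did not (0.163, limma adjusted p = 0.0713). With the column as number 3, the CD9 time change under AU-15330 and its difference between effects also passed (limma adjusted p = 0.0422 and 0.0265). A fit with the groups of 1 comparison alone gives no difference between effects. The 2 DMSO libraries at 8 h limit that time most, and CD82 was too low to test.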
